A study of Mus musculus with 6 samples.

Results

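Interleukins and interleukin receptors other than those that define the helper T cell subsets were followed in the spleen of weanling mice. The set took every probe whose single gene symbol begins with Il and a digit, without the type 1 and type 2 helper genes Il4, Il5, Il13, Il10, Il4ra, Il12a, Il12b, Il12rb1, Il12rb2 and Il18. It held 66 genes measured by 78 probes, out of 35587 probes on the array. Of 88 probes with such a symbol, 9 were left out by name and 1, for Il17rd, because it lies in the last rows of the array, where replicate arrays did not follow each other.

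Each mouse was a female BALB/c taken at postnatal day 21, and total RNA of the spleen was hybridised in 1 colour (Cy5) to a CodeLink mouse whole genome array. The Pb group held 3 mice exposed to 0.1 mM lead from gestation day 8 onwards, and the control group held 3 mice for which the labels give no lead. The labels do not give litters. Of the 3 Pb arrays, replicate 3 is not used in the values below because its values did not follow the probes. It had an r of 0.05 with each control array, against at least 0.94 between controls. Before position correction, Pb replicate 1 had an r of 0.92 to 0.93 with the controls. Pb replicate 2, which is used, had only 0.66 to 0.67. The comparison therefore rests on 2 Pb and 3 control arrays, corrected for position on the array and given as log2 intensity relative to an array median of about 0.

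Interleukins are secreted proteins through which leukocytes and stromal cells signal to each other. Most bind receptors of several chains, and chains are shared: the common gamma chain serves the lymphocyte growth factors, Il6st (gp130) serves the interleukin 6 family, and Il1rap serves the interleukin 1 family. In the spleen they are known for keeping naive lymphocytes alive, for supporting natural killer cells and for shaping the response to blood-borne antigen.

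No interleukin or receptor probe passed the adjusted threshold of 0.05. Of the 78 probes, 59 (75.6%) had a mean at or above the 30th percentile of all probes and were tested, and 0 of the 59 passed (limma, Benjamini-Hochberg over 24464 probes, where 0.0613% passed). The smallest adjusted p among them was 0.622. With Pb replicate 1 left out, so that only the more scattered Pb replicate 2 stood for lead exposure, 6 of 56 tested probes passed (for Il13ra1, Il18rap, Il17rc, Il17re, Il1f10 and Il27), beside 11.5% of all probes, and with Pb replicate 2 left out again 0 passed, beside 0.0654%. It was 0 also when control replicate 1 was dropped, beside 0.00818% of all probes. Before adjustment, 3 of 59 (5.08%) had a p under 0.05, beside 7.18% of all probes tested: 2 above 0, where all probes gave 3.88%, and 1 below, where they gave 3.3%. The median log2 difference over all 78 probes, Pb minus control, was -0.03, with quartiles of -0.19 and 0.30. Over the 34949 probes of the array rows used the median was 0.03, with quartiles of -0.25 and 0.31. The position correction draws each array towards a shared mean, which takes out shifts of whole arrays or array rows. These medians near 0 therefore cannot show whether such a shift was present.

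Both Pb arrays lay outside the range of the 3 control arrays for 21 of the 78 probes, above it for 9 and below it for 12. That is 26.9%, beside 24.9% of all probes (13% above and 11.9% below), so the share is near the background. Dropping Pb replicate 1 gave a count of 54, dropping Pb replicate 2 one of 42 and dropping control replicate 1 one of 35, where the shares over all probes were 66%, 55% and 36.8%. In all 6 arrays as deposited it was 11, 9 above and 2 below, beside 22% of all probes. The plot of cumulative shares shows the same, with the curve of the interleukin probes running along that of all probes.

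**Figure D1:**
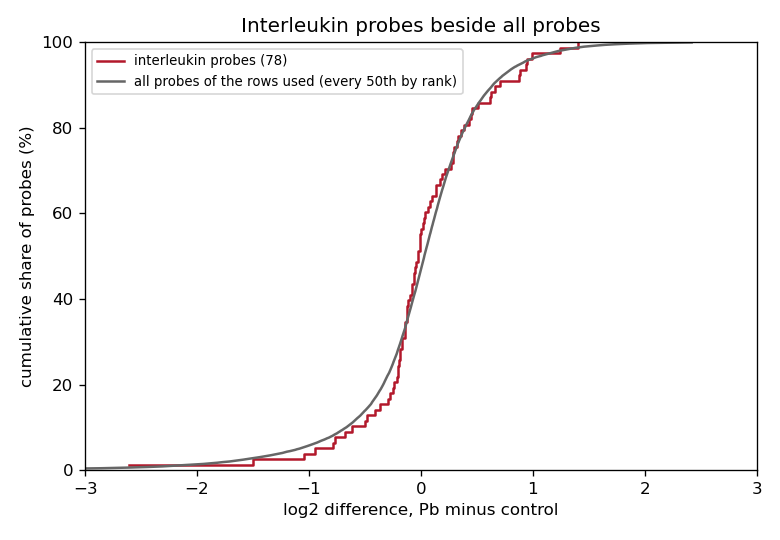
Cumulative share of probes (percent, vertical axis) by log2 difference, Pb minus control (horizontal axis), for the 78 interleukin probes and for all probes of the array rows used, drawn at every 50th by rank. The medians are -0.03 and 0.03, and the axis ends at -3 and 3.

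The data limit how small a difference could be seen. The 95% confidence interval of the log2 difference lay wholly between -1 and 1, which is less than a doubling or a halving, for 40 of the 59 tested probes, beside 70% of all probes tested. Standard errors ran from 0.16 to 0.73 with a median of 0.21. The standard errors and intervals take the corrected values as given and leave out the uncertainty of the position correction. That correction changed the log2 difference by more than 1 for 28 of the 78 probes. The intervals therefore do not bound what the correction may have added or removed. The groups did not spread alike: the deviations of the tested interleukin probes from the control mean had a scaled median absolute deviation (comparable with an SD) of 0.27 in Pb replicate 1 and 0.51 in Pb replicate 2, against 0.12 to 0.19 in the control arrays. The control mean includes the control arrays, which narrows their own deviations.

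**Figure D2:**
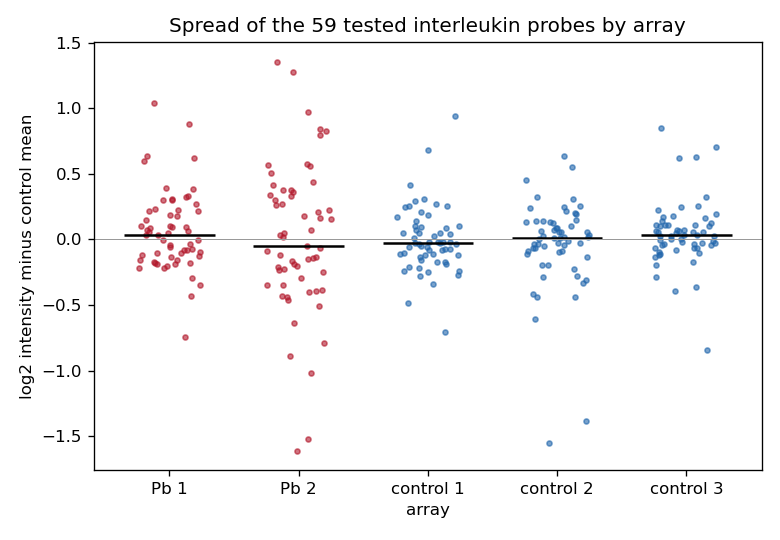
Log2 intensity minus the control mean (vertical axis) of the 59 tested interleukin probes in each of the 5 arrays (horizontal axis), 1 point a probe, with the array median as a black bar. Points of Pb replicate 2 spread most, with a median absolute deviation of 0.51. The medians of the 5 arrays lie close to 0 after a correction that draws each array towards a shared mean.

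The position correction weighed heavily on these values. It moved the interleukin probes of Pb replicate 2 by a median of 1.40 on the log2 scale and by up to 3.70, those of Pb replicate 1 by a median of 0.30, and those of the controls by medians of 0.08 to 0.15. Without it the sign of the log2 difference was the opposite for 40 of the 78 probes. The median was then 0.45, beside 0.09 over all probes of the rows used. Of the set 0 probes passed there, and of all 24464 tested also 0, so that this 0 is no sign of stability. The interleukin probes also do not lie at random on the array: 31 of the 78 share their array row with another member, with 5 in row 186 and 4 each in rows 182, 259 and 303.

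Tissue markers were read on the same arrays. All 9 measured T cell genes and all 7 measured B cell genes were above the filter, and none of them had a value at or under 0. Of 16 measured pancreatic exocrine genes, all 16 were higher in both Pb arrays than in every control, beside 13% of all probes. Of the 16, 10 passed the adjusted threshold, beside 0.0613% of all probes tested. The summed intensity of the 16 was 203 and 285 in the Pb arrays against 23.1 to 25.7 in the controls. None was at or under 0 on any array. Each gene stands by its brightest probe over the 5 arrays, Pb included, and the list was chosen with earlier results of these data known. Of the 10, 5 had control means under the filter level of -1.56 and were tested only because they were high in the Pb arrays, and with no filter 0 of the 16 passed. Their part in the interleukin values was not tested. The summed intensity of 6 natural killer cell genes was 25.6 and 29.7 in the Pb arrays and 19.1 to 31.5 in the controls. A sum weighs the brightest genes most, and the log2 differences of the 6 ran from -0.67 to 0.73 with a median of -0.02. The summed intensity of 9 T cell genes was 106 and 120 in the Pb arrays and 99.4 to 128 in the controls. Before adjustment, 2 of these 9 had a limma p under 0.05 with a higher value in Pb, beside 3.88% of all probes tested, and 0 with a lower one. They were Cd3e and Cd247, with log2 differences of 0.74 and 0.62 that were 0.30 and -1.11 without position correction. Over the 9 genes the log2 differences ran from -0.28 to 0.74 with a median of 0.06. In both Pb arrays 2 of them lay above every control and 1, Thy1, below, beside 13% and 11.9% of all probes. Of the 9, 0 passed after adjustment. Neutrophil genes (7 measured) summed to 631 in Pb replicate 1 and 335 in Pb replicate 2, against 323 to 436 in the controls. In whole spleen RNA, fewer cells of a type and less RNA per cell cannot be told apart.

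The 8 probes with the smallest unadjusted p belong to receptors and cytokines of different families, and none passed. The largest separation relative to its error was that of Il13ra1, the chain that joins Il4ra in the type 2 receptor for interleukins 4 and 13. Its probe in array row 140 read -0.996 and -0.34 in the Pb arrays, against -1.45, -1.42 and -1.98 in the controls. Both Pb values lay above every control value, with a log2 difference of 0.95 (SE 0.29, 95% interval 0.25 to 1.65, limma adjusted p = 0.622). A second Il13ra1 probe, under the filter, read -2.51 and -2.67 in the Pb arrays against -2.70, -4.40 and -2.64 in the controls, so its groups overlapped. The control mean of the first probe, -1.62, was itself under the filter level of -1.56, so that the probe was tested only through its Pb values; this also holds for 2 other tested probes of the set, 1 for Il22ra2 and 1 for Il17re.

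Il18rap, the signalling chain of the interleukin 18 receptor on T and natural killer cells, read 0.42 and -0.12 in the Pb arrays against 0.69, 0.79 and 0.83 in the controls. Here both Pb arrays were below the narrow control range, and the log2 difference was -0.62 (SE 0.21, interval -1.14 to -0.10, limma adjusted p = 0.622). Without position correction it was 0.17, of the opposite sign. The partner chain Il18r1, which binds the cytokine, read 1.07 and 0.99 in the Pb arrays against 1.00, 1.40 and 1.08 in the controls, with a log2 difference of -0.13.

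Il7, the stromal factor that naive T cells need to survive, read -0.18 and -0.69 in the Pb arrays against -1.29, -0.74 and -1.17 in the controls. Pb replicate 2 was only slightly above the highest control. The log2 difference was 0.63 (SE 0.25, limma adjusted p = 0.622), and 2.22 without position correction.

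The other 5 of the 8 each had a limma adjusted p of 0.622 as well, and their intervals all held 0. Il20ra, a chain of the receptors for Il19, Il20 and Il24, read -1.32 and -0.83 in the Pb arrays against -0.53, -0.49 and -0.71 in the controls, a log2 difference of -0.50 that was 0.07 without position correction. Il15, which sustains natural killer and memory T cells, read -0.41 and -0.86 in the Pb arrays against -0.27, -0.31 and -0.08 in the controls. Its log2 difference of -0.41 was 1.06 without position correction. Il21r, the receptor through which Il21 acts on B and T cells, read 1.77 and 2.06 in the Pb arrays against 1.39, 1.70 and 1.59 in the controls, a log2 difference of 0.36. Of these 3, Il20ra and Il15 were below and Il21r above every control in both Pb arrays.

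Il20, a cytokine that acts mainly on epithelium, read -1.12 and -0.55 in the Pb arrays against -1.53, -1.10 and -1.41 in the controls, where 1 Pb value lay just inside the control range. The last, Il22ra2, encodes a secreted protein that binds Il22 and blocks it. It read -1.26 and -0.54 in the Pb arrays against -1.60, -1.34 and -2.74 in the controls, and the low value of control replicate 3 makes up much of its log2 difference of 0.99 (interval -0.14 to 2.12). A second Il22ra2 probe, under the filter, pointed the other way at -3.16 and -3.95 in the Pb arrays against -2.64, -2.23 and -2.67 in the controls.

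**Figure D3:**
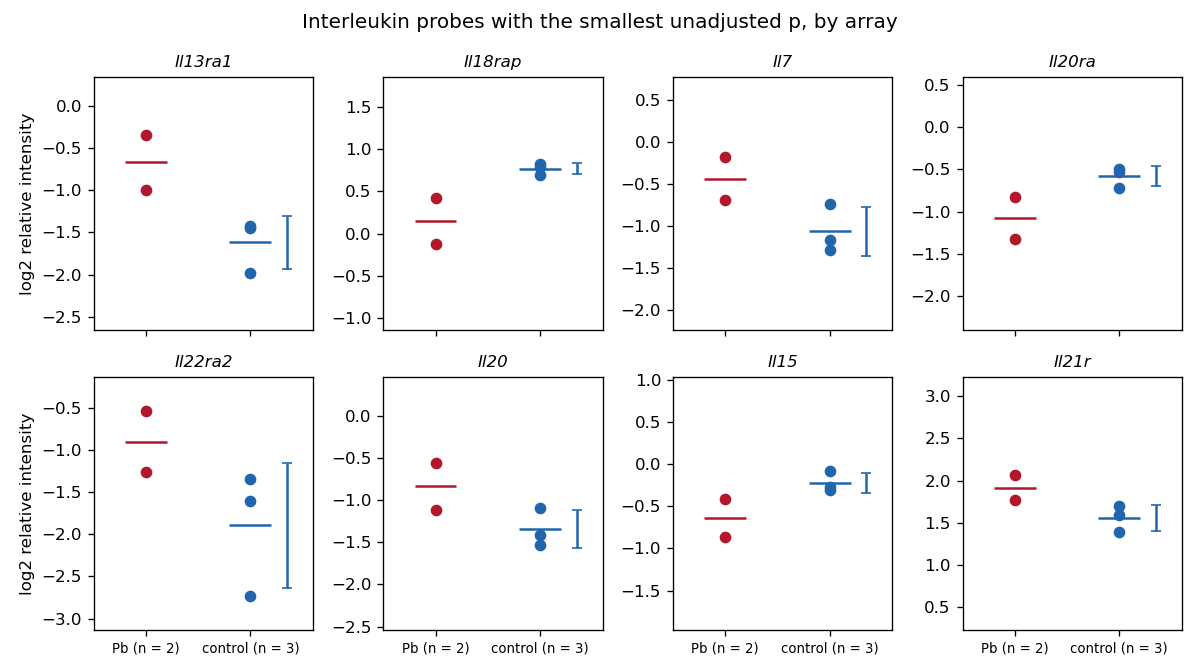
Log2 relative intensity (vertical axis, same span in every panel) of the 8 interleukin probes with the smallest unadjusted p, in Pb arrays (red, n = 2) and control arrays (blue, n = 3), each point an array, each short line a group mean and the bar beside the controls their SD. The groups are apart in every panel but Il20, and none of the 8 passed the adjusted threshold.

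Among the common gamma chain cytokines and their receptors, 12 of 13 probes were tested and 0 passed, with log2 differences from -0.41 to 0.63. Il2rb, the chain that Il2 and Il15 share, read 4.34 and 4.03 in the Pb arrays against 4.12, 3.93 and 3.998 in the controls, and the groups overlapped (log2 difference 0.17, interval -0.27 to 0.62). Il7r, carried by naive T cells, had 2 probes. The first read 3.19 and 2.80 in the Pb arrays against 3.20, 3.06 and 3.03 in the controls, and the second 2.04 and 1.43 in the Pb arrays against 1.91, 1.87 and 2.04 in the controls. Both gave small negative differences, -0.10 and -0.20, with Pb replicate 2 the lowest array each time. Without position correction these differences were 1.36 and 0.37, of the opposite sign.

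Il2ra, the chain of activated and regulatory T cells, had a log2 difference of -0.24 (interval -0.83 to 0.35), and Il2 itself one of 0.06 (-0.50 to 0.63). Il21, made by follicular helper T cells, had -0.08 and Il9 had -0.28. The 2 probes for Il15ra, which presents Il15 to neighbouring cells, differed in sign: 1 read 1.66 and 1.00 in the Pb arrays against 1.39, 1.44 and 1.58 in the controls, and the other -0.995 and -0.62 in the Pb arrays against -0.64, -1.31 and -0.73 in the controls. Their differences of -0.14 and 0.08 were both within the spread of the arrays. Il9r was under the filter, and 1 control value was at or under 0 as deposited.

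The interleukin 1 family had 19 probes, of which 13 were tested and 0 passed. Il1b, the inflammatory cytokine released by myeloid cells, read 1.44 and 1.96 in the Pb arrays against 1.35, 1.79 and 1.64 in the controls, with a log2 difference of 0.10 (interval -0.48 to 0.69). Il1a had 0.19 (-0.65 to 1.02). Il33, an alarm signal kept in the nuclei of stromal cells, read 2.86 and 2.24 in the Pb arrays against 2.52, 2.61 and 2.66 in the controls, so that the Pb arrays lay on either side of the controls. The signalling receptor Il1r1 read 1.74 and 2.29 in the Pb arrays against 1.85, 1.78 and 2.00 in the controls, likewise on either side, and the decoy receptor Il1r2 had a log2 difference of 0.21. Without position correction Il1r1 had a difference of 1.37 and Il1r2 one of 1.49.

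Of the inhibitors of this family, 0 of 3 passed. Il18bp, the secreted protein that neutralises interleukin 18, read 3.78 and 3.40 in the Pb arrays against 3.82, 3.87 and 3.83 in the controls, a log2 difference of -0.25 (interval -0.71 to 0.21). The receptor antagonist Il1rn read 0.21 and 0.16 in the Pb arrays against 0.25, 0.44 and 0.42 in the controls. Its log2 difference of -0.18 (-0.59 to 0.22) was 0.53 without position correction. Il1f5, the antagonist of the interleukin 36 receptor, had -0.08 and overlapped. The interleukin 36 cytokines Il1f6 and Il1f9 had -0.21 and 0.33, and Il1f10 had 0.45, with Pb replicate 2 alone standing high at 1.16 against 0.11 in Pb replicate 1 and 0.15 to 0.23 in the controls.

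All 3 probes for the shared chain Il1rap were under the filter. They read -1.29 and -1.90, -3.69 and -2.62, and -3.12 and -2.88 in the Pb arrays, against controls from -2.08 to -0.74, from -3.39 to -2.37, and from -2.90 to -1.48. Their log2 differences of 0.02, -0.21 and -0.68 differed in sign, and in no probe did the groups separate. Il1rl2, Il1rapl1 and Il1rapl2 were also under the filter, the last 2 being receptors known mainly from neurons.

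In the interleukin 6 and 12 families 9 of 13 probes were tested and 0 passed. Il6st, the shared signal chain gp130, read 4.39 and 4.27 in the Pb arrays against 4.43, 4.52 and 4.21 in the controls for its first probe (log2 difference -0.06, interval -0.50 to 0.38). A second probe had -0.14 and the last, under the filter, -0.48, so all 3 had the same sign after correction. Without position correction they were -0.58, 1.47 and 1.34, and differed in sign. Il6 had -0.17 (-0.57 to 0.24), at -0.62 and -0.57 in the Pb arrays against -0.51, -0.30 and -0.47 in the controls, just below the control range. Without position correction the difference of Il6 was 0.99. Its receptor Il6ra had -0.07.

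Il23a, the subunit that pairs with Il12b to form interleukin 23, read 3.99 and 3.94 in the Pb arrays against 3.82, 3.65 and 3.57 in the controls. Both Pb arrays were above the controls, with a log2 difference of 0.29 (SE 0.17, interval -0.13 to 0.70, limma adjusted p = 0.624) that was -1.04 without position correction. Its receptor Il23r read 1.61 and 1.51 in the Pb arrays against 1.30, 1.09 and 1.46 in the controls, also above. The Il23r difference was 0.27 (limma adjusted p = 0.648). Without position correction it was 1.48, so the pair then differed in sign. Neither passed.

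Il27ra, the receptor that restrains activated T cells, read 2.08 and 2.51 in the Pb arrays against 2.24, 2.33 and 2.33 in the controls, a difference of -0.01. Il27 stood at -0.10 in Pb replicate 1, within the controls, and at -1.61 in Pb replicate 2, against -0.11, 0.22 and -0.38 in the controls, so its difference of -0.76 rests on 1 array. Il31 had -0.03, and Il31ra was under the filter. The 2 probes for Il11, both under the filter, differed in sign: they read -1.80 and -2.57, and -2.36 and -2.80, in the Pb arrays, against -2.52, -5.34 and -2.42, and -1.79, -1.83 and -1.30, in the controls.

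The interleukin 17 family had the lowest share of tested probes, 8 of 13, and 0 passed. Neither probe for Il17a, the cytokine that gives the family its name, nor that for Il17f passed the filter, and Il17f had 1 control value at or under 0. The 2 Il17a probes read -4.64 and -3.89, and -2.67 and -2.51, in the Pb arrays, against -3.59, -2.67 and -2.03, and -3.83, -1.83 and -2.51, in the controls, with differences of -1.50 and 0.14. Il17b and Il17rd were under the filter too.

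Il17rc, which pairs with Il17ra to receive Il17a and Il17f, read 1.21 and 1.95 in the Pb arrays against 1.15, 1.13 and 1.08 in the controls. The separation came mostly from Pb replicate 2, and the log2 difference of 0.46 (interval -0.16 to 1.07) was -0.85 without position correction. Il17ra had 0.43 (-0.47 to 1.33). Il25, a cytokine of barrier tissues, read 0.50 and 0.29 in the Pb arrays against 0.19, -0.09 and 0.22 in the controls, a difference of 0.28 with both Pb arrays above. Il17c, from epithelium, read -0.03 and 0.50 in the Pb arrays against 0.19, -0.29 and -0.09 in the controls and overlapped.

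Il17re, the receptor for Il17c, had 2 tested probes that differed in sign. The first read -0.19 and -1.84 in the Pb arrays against -0.15, -0.27 and -0.26 in the controls, and its value in Pb replicate 2 was at or under 0 as deposited and had been raised to the floor. The second read -0.81 and -1.01 in the Pb arrays against -0.91, -3.41 and -1.23 in the controls, where control replicate 2 alone was low. Their differences were -0.79 and 0.94, each resting on 1 array. Il17d and Il17rb, the receptor for Il25, had -0.14 and -0.36.

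Of the 11 probes for the interleukin 10 family, 9 were tested and 0 passed. Il10rb, the chain that several receptors of the family share, read 2.90 and 3.06 in the Pb arrays against 2.82, 3.16 and 3.10 in the controls, a log2 difference of -0.05 (interval -0.51 to 0.41). Il10ra, which binds Il10, read 1.31 and 1.27 in the Pb arrays against 1.35, 1.46 and 1.41 in the controls, a difference of only -0.12 although the groups did not overlap. Il20rb read 1.68 and 1.46 in the Pb arrays against 2.05, 1.80 and 1.74 in the controls, also without overlap (difference -0.29, limma adjusted p = 0.640).

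A second Il20rb probe, under the filter, had the widest difference of the set at -2.61. It came from 1 value at or under 0 in Pb replicate 2, set to the floor and reading -6.13 after correction, beside -0.54 in Pb replicate 1 and -1.13 to -0.50 in the controls. Il22ra1, the receptor for Il22 on epithelium, read 1.77 and 1.82 in the Pb arrays against 1.23, 2.11 and 1.08 in the controls, inside the control range. Il19 and Il24 had -0.19 and 0.04.

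Of the beta chain cytokine receptors and the receptors for type 2 cytokines, 5 of 6 probes were tested and 0 passed. The probe for Il3, a growth factor for early myeloid cells, read 2.28 and 2.47 in the Pb arrays against 2.27, 2.47 and 2.46 in the controls. Its receptor chain Il3ra read 0.47 and 1.06 in the Pb arrays against 0.48, 0.82 and 0.99 in the controls. Both had differences near 0, -0.02 and 0.00, that were 0.99 and -0.75 without position correction. Their signs held in 10 and 9 of 16 alternatives. Il13ra2, a decoy for interleukin 13, read 1.66 and 1.21 in the Pb arrays against 1.43, 1.66 and 1.72 in the controls (difference -0.17), and Il5ra, the receptor of eosinophils, had 0.38 with a wide interval of -1.21 to 1.98.

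The remaining 3 probes had intervals within -1 and 1. Il16, a chemoattractant made from a precursor in lymphocytes, read 4.31 and 3.87 in the Pb arrays against 3.97, 4.11 and 4.19 in the controls, a difference of -0.01. Il4i1, an amino acid oxidase induced by Il4 and no interleukin, read 2.77 and 2.54 in the Pb arrays against 2.52, 2.77 and 2.60 in the controls, a difference of 0.03. That closeness was made by the position correction. Without it the difference of Il4i1 was -1.99, with Pb replicate 2 at -1.16 against 2.14 to 3.24 in the controls. Il34, a ligand of the receptor Csf1r, read 0.02 and -0.14 in the Pb arrays against 0.04, 0.14 and -0.01 in the controls, a difference of -0.12. Without position correction the differences of Il16 and Il34 were 0.53 and -0.62.

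**Figure D4:**
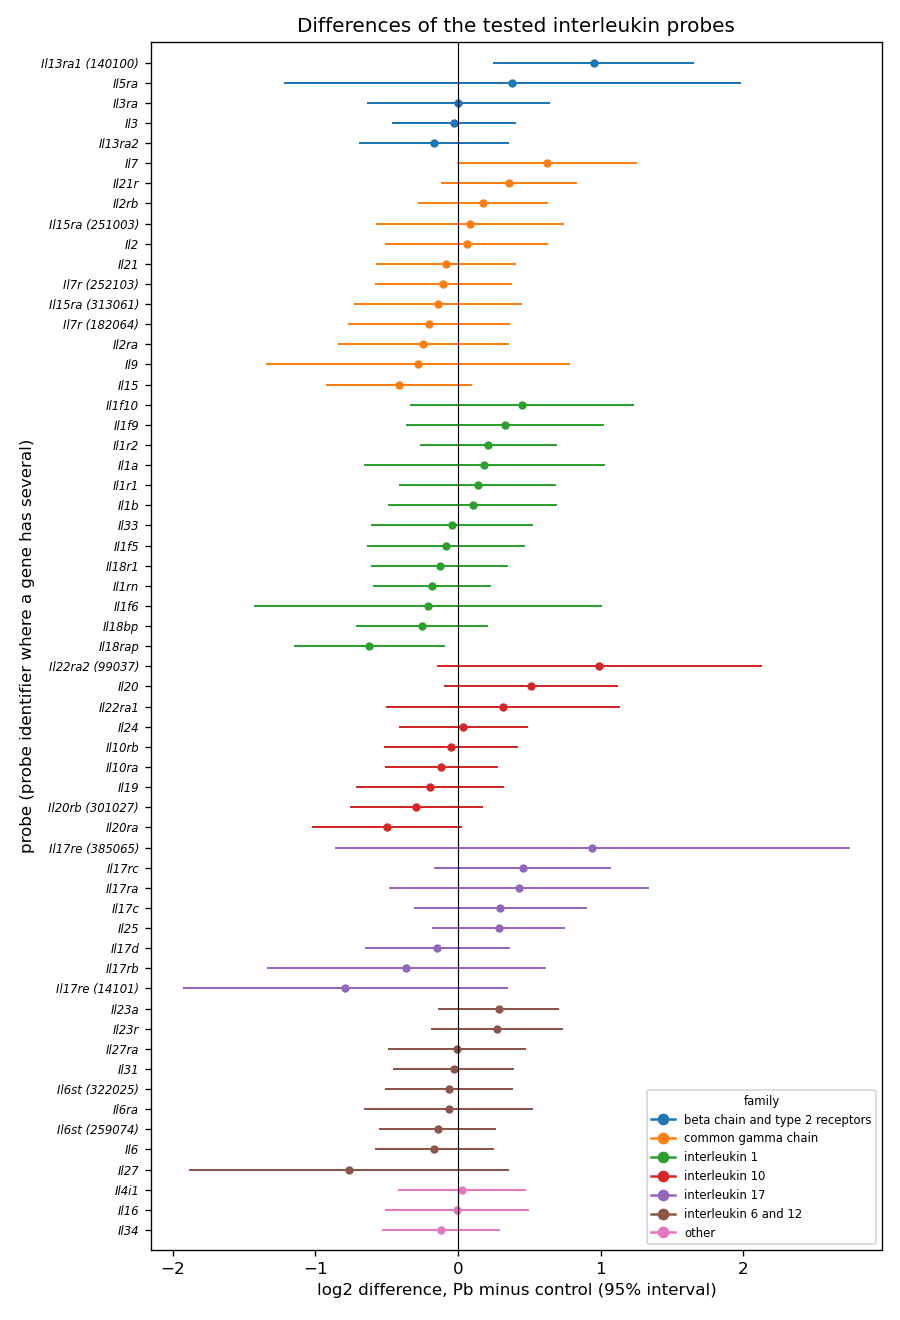
Log2 difference, Pb minus control (horizontal axis, points), with its 95% confidence interval (lines) for the 59 tested interleukin probes, grouped by family from top to bottom. Intervals of Il13ra1 and Il18rap, and narrowly Il7, leave out 0 before adjustment for the number of probes tested, and Il13ra1 was tested only through its Pb values. No interval includes the uncertainty of the position correction.

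By role, 24 of 30 cytokine probes, 30 of 42 receptor probes and 4 of 5 probes for inhibitors passed the filter, as did Il4i1. Under it were 19 probes, and 11 of the 66 genes had no probe above it. There the 3 controls themselves were wide apart, with a median SD of 0.75 against 0.16 for tested probes, and all 5 differences of 1 or more in size were among these 19. Of 10 genes with several probes, 6 had probes of opposite sign. Of the 10, 4 had more than 1 probe above the filter: Il7r and Il6st with the same sign, Il15ra and Il17re with opposite signs. Without position correction the probes of Il6st differed in sign and those of Il15ra shared it.

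Proteins that carry interleukin signals inside the cell were read from a list of 56 genes, 50 of them measured. Of these, 47 were tested and 0 passed, with a median log2 difference over the 50 of 0.00. Before adjustment 1 gene above 0 and 1 below had a p under 0.05, beside 3.88% and 3.3% of all probes tested, so neither count stands out from the background. Ptpn11, a phosphatase that relays growth signals, read -0.22 and -0.52 in the Pb arrays against 0.36, 0.67 and 0.11 in the controls (log2 difference -0.75, SE 0.23, limma adjusted p = 0.622), and the difference was 0.86 without position correction. Grb2, an adaptor between receptors and Ras, read 2.91 and 3.20 in the Pb arrays against 2.62, 2.52 and 2.34 in the controls (0.56, SE 0.19, limma adjusted p = 0.622).

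Stat3, the transcription factor that Il6st activates, read 5.01 and 4.48 in the Pb arrays against 5.53, 5.19 and 5.20 in the controls. Its feedback inhibitor Socs3 read 0.68 and 0.53 in the Pb arrays against 1.02, 1.09 and 0.89 in the controls. Both were below every control in both Pb arrays, with log2 differences of -0.57 and -0.40, and both had an adjusted p of 0.622 (limma). Without position correction the difference of Socs3 was 0.66, of the opposite sign, and that of Stat3 was -1.45. Jak1, the kinase on most of these receptors, read 7.56 and 7.78 in the Pb arrays against 7.52, 7.11 and 7.26 in the controls, a difference of 0.37. Ptpn6, a phosphatase that damps receptor signals, and Crlf2, the receptor for Tslp, overlapped, with differences of -0.03 and -0.26 that were 0.88 and 0.44 without position correction.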

How the data were processed

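Per the labels, spleen RNA was hybridised to 1-colour (Cy5) CodeLink arrays. The authors deposited 1 intensity per probe and array on a linear scale with an array median near 1; how they were scanned, background-corrected and normalised is not given in the sources used. Values at or under 0 (147 to 674 per array used) were set to the lowest percentile (1%) of positive values, and log2 was taken. A smooth surface (mgcv 1.9.3, function bam) was fitted to how each array departed from a mean over Pb replicate 1 and all controls, and subtracted, in 2 passes; it joined array row with level and array row with array column, with 40 basis functions for row, 6 for level and 8 for column. This pulls Pb replicate 2 towards that mean. Limma 3.58.1 in R 4.3.3 (lmFit, eBayes, two-sided, Benjamini-Hochberg) was fitted to the 24464 probes with a mean at or above the 30th percentile. The method was also run on simulated data, where the position effect was a smooth wave along array rows. That wave did not depend on level or column, so the run cannot show how well the real position effect was removed.

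Symbols come from the platform annotation, and the entrez identifiers of all 78 probes were found in the RefSeq table of GRCm38.p6. Probes of a gene were kept apart; in the marker and signalling lists the brightest probe stands for its gene. The members and lists were chosen with earlier results of these data known. Values on every array are given for the 8 smallest unadjusted p, the 3 brightest tested probes of each family in controls, genes whose probes differ in sign, and for signalling genes the 4 smallest p and the 4 brightest; other genes given by array were chosen after their values were seen. Precision is limited by how few arrays there are, and the p-values measure the spread between samples that the labels number as separate animals. No detection calls were used, and 16 alternatives were tried.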

Additional observations from a re-analysis of the deposited data

How the results depend on the processing

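The count of 0 interleukin probes held in 15 of 16 alternatives. The exception left out Pb replicate 1, so that the wider Pb replicate 2 stood alone and was assumed to vary like the controls: 6 of 56 tested interleukin probes then passed (Il13ra1 1.28, Il18rap -0.89, Il17rc 0.83, Il17re -1.61, Il1f10 and Il27), as did 2817 of all 24464 (11.5%) and 5 of the signalling list. Leaving out each array in turn gave 0 to 6 interleukin probes, 0 to 5 signalling probes, 2 to 2817 probes in all, a median log2 difference of the interleukin probes from -0.062 to 0.0397, and 26 to 54 interleukin probes whose groups do not overlap, where fewer arrays make separation easier. Of all probes, 15 passed; this became 0 in the 6 arrays as deposited, 0 without position correction, 0 without the filter and 7 with array weights. The numbers were not shown to pair the animals (r of 0.03 for replicates 1 and under 0.01 for replicates 2). Both Pb arrays deviate from their own mean by equal and opposite amounts, so both r values use the same Pb contrast. A pairing could therefore have been missed. With the replicate block 7 probes passed, and 0 interleukin probes. The median of -0.03 became 0.38 in the 6 arrays, 0.45 without correction and -0.14 with a surface that does not depend on level, which moved the median of all probes from 0.03 to -0.10. For all probes the median was 0.03 in the 6 arrays and 0.09 without correction. In the 6 arrays 11 interleukin probes in place of 21 did not overlap (9 above and 2 below, in place of 9 and 12), beside 22% of all probes in place of 24.9%. In 760 comparisons of 48 named probes, calls were gained only with Pb replicate 1 left out. No named probe was called in the main fit, so none could lose a call. Uncalled differences changed sign in 102 comparisons. The cause of these changes was not tested.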
